A study of Rattus norvegicus with 12 samples.

Results

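The transcription factor genes Gata4, Gata6, Sox7, Sox17 and Foxq1 of the extraembryonic endoderm were followed across 12 arrays of rat XEN cells. They were chosen by name as factors of this lineage, with earlier results of these data known. They are 5 of the 16633 genes that the array's annotation named. Together they are read by 20 of 211195 probe sets, with 7 for Gata4, 6 for Gata6, 3 for Foxq1 and 2 each for Sox7 and Sox17. The level of a gene is the median of its probe sets, in deposited log2 units, given as mean ± SD over n = 3 arrays.

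XEN cells are cultured stem cells of extraembryonic endoderm, the tissue that lines the early yolk sac, here from rats of the Fisher strain. Control cells received no compound. CHIR99021 was given at 3 µM over 2 days (CHIR) and forskolin at 10 µM over 1 day. The combination had CHIR99021 on both days and forskolin on the last, at the same doses. CHIR99021 inhibits the kinase GSK3 and thereby stabilises beta-catenin, and forskolin activates adenylate cyclase, which makes cyclic AMP. Every group spent the last day in medium with 0.1% serum, after 10% serum on the day before. The exposures differ in length, so compound and length of treatment cannot be told apart when CHIR is set against forskolin. How the line was derived is not given in the sources used here, and the 3 arrays of a group are called parallels without being stated to be separate cultures. The p-values therefore describe only the spread among these arrays, and it may be technical.

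GATA factors bind DNA through zinc fingers and are known from mouse embryos and stem cells to start and maintain the extraembryonic endoderm programme. Gata6 acts early in the primitive endoderm and Gata4 follows it. Sox7 and Sox17 belong to the F group of Sox proteins, which bind through a high mobility group box and in mouse cells act downstream of GATA factors on genes for basement membrane and uptake proteins. Foxq1 is a forkhead factor listed among markers of mouse XEN cells, and in human carcinoma lines it is known as a Wnt-responsive gene.

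Promoter windows from RefSeq (build GRCr8), each 250 bases before to 50 bases after the annotated start, were held for 2 of the 5 genes, Foxq1 and Gata6, and these are the ones shown. The Foxq1 window lies on the minus strand at chr17:33124038-33124337 and the Gata6 window on the plus strand at chr18:2460659-2460958. Capitals mark GC boxes (GGGCGG) and CCAAT boxes (CCAAT) on either strand.
Foxq1: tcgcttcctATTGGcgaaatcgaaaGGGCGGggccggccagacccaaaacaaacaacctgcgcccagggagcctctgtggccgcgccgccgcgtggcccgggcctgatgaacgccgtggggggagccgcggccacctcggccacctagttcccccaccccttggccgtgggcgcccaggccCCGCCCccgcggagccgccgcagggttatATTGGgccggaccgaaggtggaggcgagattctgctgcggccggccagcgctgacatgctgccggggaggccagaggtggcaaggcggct
Gata6: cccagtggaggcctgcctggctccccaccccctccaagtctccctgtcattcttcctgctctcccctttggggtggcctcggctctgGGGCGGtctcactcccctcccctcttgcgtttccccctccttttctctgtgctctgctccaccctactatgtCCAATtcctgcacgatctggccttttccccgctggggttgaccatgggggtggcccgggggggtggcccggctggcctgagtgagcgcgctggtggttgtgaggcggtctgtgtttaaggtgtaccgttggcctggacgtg

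The Foxq1 window had a GC content of 72.0% with 32 CpG dinucleotides, and the Gata6 window had 64.7% with 12. The median GC content of all 33469 windows was 51.7%. Neither window held the cyclic AMP response element TGACGTCA (in 1.83% of all windows), its shorter form TGACG, which lies within it (21.2%) or the TCF/LEF motif CTTTGAT (3.63%) on either strand. Neither held the GATA motif AGATAA (11.6%), the SOX motif ACAAT (33.7%) or the forkhead motif TGTTTAC (3.78%) either. Foxq1 held 2 GC boxes and 2 CCAAT boxes, and Gata6 held 1 of each. GC boxes occurred in 33.1% and CCAAT boxes in 37.5% of all windows, and both motifs were added after the windows had been read. An absent motif says only that these letters are not in this window.

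The labels were checked on known responses to the treatments. Axin2, a feedback target of Wnt signalling, rose with CHIR by 2.89 (limma adjusted p = 2.78e-09), and Crem, a cyclic AMP target, rose with forskolin by 1.45 (adjusted p = 1.25e-06). Array medians lay between 7.76 and 7.86, and arrays correlated at 0.995 to 0.997 within groups and 0.966 to 0.99 between groups. As a reference for background, the 1102 measured olfactory receptor genes had a 95th percentile of 6.42. Gata4, Gata6, Sox7 and Sox17 lay above it on all 12 arrays, as XEN cells should, while Foxq1 lay above it only in control and CHIR.

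Gata6 was lower with CHIR and its 4 groups separated fully. It read 12.76, 12.83 and 12.83 on the control arrays, 12.27, 12.21 and 12.16 with CHIR, 12.94, 13.03 and 13.01 with forskolin, and 12.58, 12.63 and 12.59 with both. The order was CHIR, combination, control, forskolin, with no overlap between any neighbours. CHIR lowered the mean from 12.81 ± 0.039 to 12.21 ± 0.053, by -0.59 on the log2 scale (SE 0.0686, adjusted p = 1.33e-05). That is a 1.51-fold fall. Over all genes, 28.1% passed in this comparison, 14.3% higher and 13.9% lower, and 4 of the 5 factors passed, 1 higher and 3 lower.

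Forskolin moved Gata6 the other way. With CHIR present, forskolin raised it by 0.38 (SE 0.0686, adjusted p = 0.00158). In that comparison 13.8% of all genes passed, 6.51% higher and 7.33% lower, and 3 of the 5 factors did, 2 higher and 1 lower. Without CHIR the difference was 0.19 (95% interval 0.04 to 0.34, adjusted p = 0.0894) and did not pass, although the forskolin arrays all lay above the control arrays. It passed with the mean of the probe sets (0.19, adjusted p = 0.0173) and with trended, robust moderation (0.19, adjusted p = 0.0128). The combination stayed below control by -0.21 (SE 0.0686, adjusted p = 0.0346). Of all genes 29% passed there, 14.3% higher and 14.7% lower, and of the 5 factors 1 was higher and 2 were lower. CHIR added to forskolin lowered Gata6 by -0.40 (SE 0.0686, adjusted p = 0.000477), and CHIR against forskolin gave -0.78 (SE 0.0686, adjusted p = 6e-07). The call against control was lost without Control replicate 2 (-0.20, adjusted p = 0.0881) or 3 (-0.20, adjusted p = 0.0999), and without combination replicate 1 (-0.20, adjusted p = 0.0857), 2 (-0.22, adjusted p = 0.0591) or 3 (-0.20, adjusted p = 0.088). It was also lost with arrays centred on their medians (-0.17, adjusted p = 0.11), with the brightest probe set (-0.13, adjusted p = 0.161), with the replicate block (-0.21, adjusted p = 0.0525) and when only the groups compared were fitted (-0.21, adjusted p = 0.0788). The sum of the single effects was -0.40, and the interaction of 0.20 did not pass (95% interval -0.01 to 0.41, adjusted p = 0.312).

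All 6 probe sets of Gata6 showed the CHIR fall, with differences from -0.79 to -0.44 and no overlap of the arrays in any of them. Over the whole table, 14.5% of probe sets had 3 CHIR arrays all below the control arrays. The same 6 probe sets all had forskolin arrays above control, by 0.11 to 0.27, against 11.4% of all probe sets. They were also higher with both compounds than with CHIR alone, by 0.31 to 0.51, against 10.5%. The probe sets of a gene share the same RNA on each array and are not replicates.

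Gata4, the other GATA factor of the endoderm, hardly moved. It read 12.33, 12.29 and 12.32 in control, 12.26, 12.25 and 12.29 with CHIR, 12.40, 12.35 and 12.42 with forskolin, and 12.34, 12.35 and 12.46 with both. Its 4 group means spanned 0.13, and the CHIR and control arrays touched at 12.29. CHIR gave -0.05 (95% interval -0.19 to 0.10, adjusted p = 0.703) and forskolin gave 0.08 (-0.07 to 0.23, adjusted p = 0.532). The combination gave 0.07 against control (adjusted p = 0.484), 0.12 against CHIR (adjusted p = 0.313) and 0.00 against forskolin (-0.15 to 0.14, adjusted p = 0.973). No comparison passed for Gata4 on the median of its probe sets in limma, with unadjusted p-values from 0.0876 to 0.947.

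Single probe sets of Gata4 showed small shifts that the median did not carry. With both compounds against forskolin, all 7 were lower, by -0.45 to -0.05, beside 0.00 on the median. The median was the sixth probe set on every array of these groups except combination replicate 3. There it was the second, at 12.46, while the sixth read 12.34. CHIR against forskolin gave -0.13 on the median (95% interval -0.27 to 0.02, adjusted p = 0.186), yet 6 of the 7 probe sets had CHIR arrays all below the forskolin arrays. Over the whole table this held for 17.6% of probe sets. Their differences ran from -0.45 to -0.13. With the mean of the probe sets the comparison passed (-0.26, adjusted p = 0.00177). Against control, 3 of 7 probe sets were lower with CHIR without overlap and 4 of 7 were higher with forskolin. Over the whole table the shares were 14.5% and 11.4%.

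**Figure D1:**
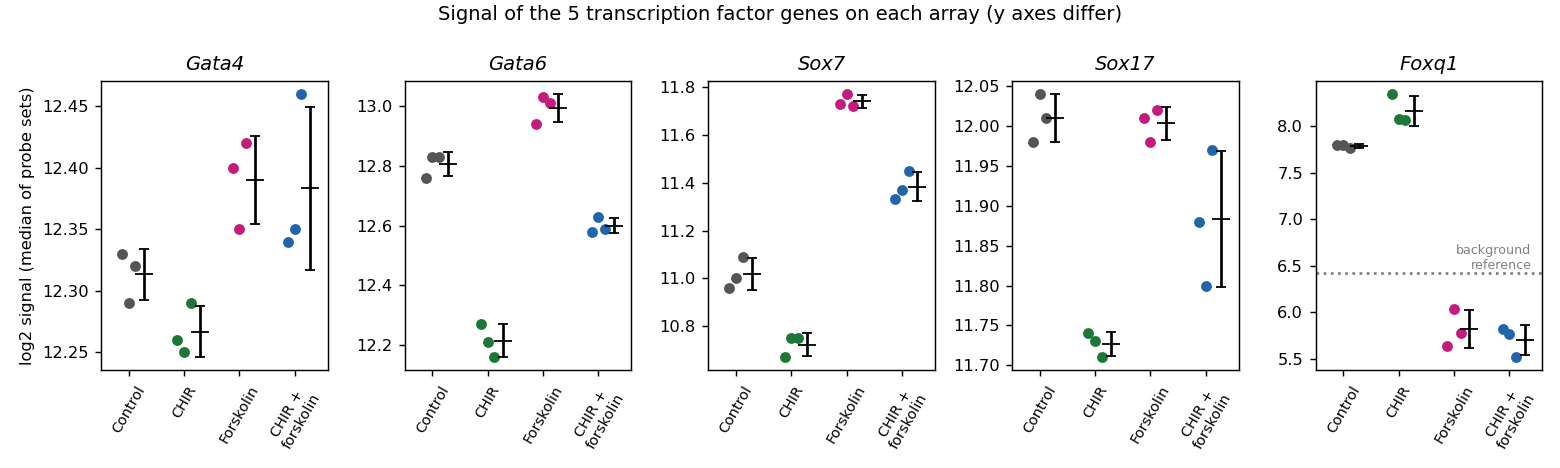
Log2 signal (median of probe sets) of Gata4, Gata6, Sox7, Sox17 and Foxq1 on each of the 12 arrays, with points for arrays, black marks for mean ± SD of 3 arrays, and a separate y axis for each gene. Gata6 and Sox7 separate into 4 levels, while Foxq1 falls from 7.78 in control to 5.82 with forskolin, below the dotted background reference at 6.42.

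The difference between the GATA factors was tested as Gata6 minus Gata4 within each array. Its size depends on the probes as well as the RNA, so only its change between groups is read. It was 0.44 to 0.54 in control, -0.13 to 0.01 with CHIR, 0.54 to 0.68 with forskolin and 0.13 to 0.28 with both. The CHIR arrays lay lowest and did not overlap any other group. Averaged over cells without and with forskolin, CHIR changed Gata6 by -0.49 and Gata4 by -0.03, a difference of -0.47 between the genes (two-sided exact permutation p = 0.005 with labels exchanged within strata, adjusted p = 0.00667 over the 4 tests of this kind). The lowest p that the 400 arrangements allow is 0.005. Forskolin changed Gata6 by 0.29 and Gata4 by 0.10, a difference of 0.19 (exact permutation p = 0.005, adjusted p = 0.00667), but with the brightest probe sets this fell to 0.12 and did not pass (adjusted p = 0.05).

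Sox7 responded to both compounds, in opposite directions. It read 10.96, 11.00 and 11.09 in control, 10.67, 10.75 and 10.75 with CHIR, 11.73, 11.77 and 11.72 with forskolin, and 11.33, 11.37 and 11.45 with both. The 4 groups ran in the order CHIR, control, combination, forskolin, and no neighbours overlapped. Forskolin raised the mean from 11.02 ± 0.069 to 11.74 ± 0.027, by 0.73 (SE 0.0715, adjusted p = 7.57e-06), a 1.65-fold rise. In that comparison 15% of all genes passed, 6.07% higher and 8.92% lower, and 2 of the 5 factors passed, 1 in each direction. Over all genes 1009 were higher and 1483 lower, and centring the arrays on their medians turned this into 1202 and 1167.

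CHIR lowered Sox7 by -0.29 (SE 0.0715, adjusted p = 0.00666) without forskolin and by -0.36 (SE 0.0715, adjusted p = 0.0014) with it. In the latter comparison, combination against forskolin, 30% of all genes passed, 16.4% higher and 13.6% lower, and Gata6 and Sox7 passed, both lower. Forskolin added to CHIR raised Sox7 by 0.66 (SE 0.0715, adjusted p = 2.27e-05), close in size to its rise without CHIR. The combination ended 0.37 above control (SE 0.0715, adjusted p = 0.00128), beside a sum of single effects of 0.44. The interaction was -0.07 (95% interval -0.29 to 0.15, adjusted p = 0.81). Each of these 5 calls passed in all alternatives tried. CHIR against forskolin differed most, by -1.02 (SE 0.0715, adjusted p = 5.86e-08), where 35.2% of all genes passed, 19.5% higher and 15.7% lower, and of the 5 factors 1 was higher and 3 were lower. Both probe sets of Sox7 showed each of these differences without overlap, with 0.70 and 0.75 for forskolin against control. Over the whole table, 11.4% of probe sets had forskolin arrays all above control and 14.5% had CHIR arrays all below control. For both compounds above CHIR the share was 10.5%, and for CHIR below forskolin it was 17.6%.

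Sox17 fell with CHIR and showed no call with forskolin. It read 11.98, 12.04 and 12.01 in control, 11.74, 11.73 and 11.71 with CHIR, 12.01, 11.98 and 12.02 with forskolin, and 11.88, 11.80 and 11.97 with both. The CHIR arrays lay below all others, the control and forskolin arrays overlapped, and the combination arrays lay between. CHIR gave -0.28 (SE 0.0697, adjusted p = 0.00691), with a mean of 11.73 ± 0.015 against 12.01 ± 0.03. Against forskolin, CHIR gave -0.27 (SE 0.0697, adjusted p = 0.00644). Forskolin against control gave -0.01 (95% interval -0.16 to 0.14, adjusted p = 0.97). The combination differed from control by -0.13 (adjusted p = 0.207), from forskolin by -0.12 (adjusted p = 0.228) and from CHIR by 0.15 (95% interval 0.00 to 0.30, adjusted p = 0.188), and none of these passed. The interaction was 0.16 (95% interval -0.05 to 0.37, adjusted p = 0.452). The 2 probe sets of Sox17 gave -0.36 and -0.20 for CHIR, each without overlap, and -0.08 and 0.07 for forskolin. Of all probe sets, 14.5% had CHIR arrays all below control.

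Within arrays, Sox7 minus Sox17 was -1.04 to -0.92 in control and -1.07 to -0.96 with CHIR, which overlap. It was -0.30 to -0.20 with forskolin and -0.55 to -0.43 with both, each apart from all other groups. Forskolin changed Sox7 by 0.69 and Sox17 by 0.07 averaged over cells without and with CHIR, a difference of 0.62 between the genes (two-sided exact permutation p = 0.005, adjusted p = 0.00667 over the 4 tests). CHIR changed Sox7 by -0.33 and Sox17 by -0.20, a difference of -0.12 that did not pass (exact permutation p = 0.05, adjusted p = 0.05). It was -0.01 without forskolin and -0.24 with it. It passed with the brightest probe sets (-0.16, adjusted p = 0.00667) and without Control replicate 1 (-0.13, adjusted p = 0.04), Control replicate 2 (-0.14, adjusted p = 0.035), CHIR replicate 2 (-0.13, adjusted p = 0.035) or CHIR replicate 3 (-0.13, adjusted p = 0.035).

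**Figure D2:**
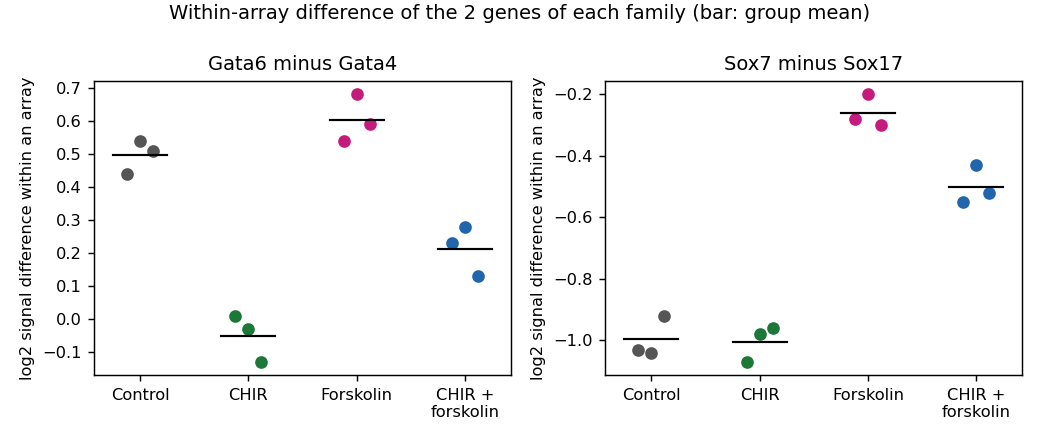
Log2 signal of Gata6 minus Gata4 (left) and of Sox7 minus Sox17 (right) within each array, with points for the 12 arrays and bars for group means. Gata6 minus Gata4 drops from 0.44 to 0.54 in control to between -0.13 and 0.01 with CHIR, and Sox7 minus Sox17 is highest with forskolin, at -0.30 to -0.20.

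Foxq1 gave the largest changes of the 5 genes and was the only one to fall with forskolin. It read 7.80, 7.80 and 7.76 in control, 8.34, 8.07 and 8.06 with CHIR, 5.64, 6.04 and 5.78 with forskolin, and 5.82, 5.77 and 5.52 with both. Forskolin and combination arrays overlapped each other and lay far below control and CHIR. Forskolin lowered the mean from 7.78 ± 0.024 to 5.82 ± 0.21, by -1.96 (SE 0.115, adjusted p = 6.58e-08), a 3.9-fold fall. Both groups with forskolin lay below the background reference of 6.42, which may understate these falls. The gene median also changed probe set between groups, and the median of the single probe set differences for forskolin was smaller, at -1.48.

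With CHIR present, forskolin lowered Foxq1 by -2.45 (SE 0.115, adjusted p = 7.31e-09). The combination lay -2.08 below control (SE 0.115, adjusted p = 9.61e-09), and CHIR lay 2.33 above forskolin (SE 0.115, adjusted p = 1.74e-09). CHIR alone raised Foxq1 by 0.37 (SE 0.115, adjusted p = 0.0259), to 8.16 ± 0.16. That call was lost without Control replicate 1 (0.38, adjusted p = 0.0539), 2 (0.38, adjusted p = 0.0551) or 3 (0.36, adjusted p = 0.0747), and without CHIR replicate 1 (0.28, adjusted p = 0.118). In forskolin-treated cells CHIR gave -0.12 (95% interval -0.37 to 0.13, adjusted p = 0.501). The interaction was -0.49 (95% interval -0.84 to -0.14, adjusted p = 0.105). Of all genes 6.31% passed for the interaction in limma, 3.25% higher and 3.07% lower, but 0 of the 5 factors did, and 1, Foxq1, had an unadjusted p under 0.05 (0.00958). Foxq1 passed with the mean of the probe sets (-0.39, adjusted p = 0.016). Its level near background in both forskolin groups enters this interaction, and its part in the result was not tested.

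Counted by arrays, groups of most of the factors lay apart. With CHIR against control, 3 of the 5 genes had 3 arrays all lower and 1 all higher, against 18.1% and 19.9% of all genes. With forskolin against control, 3 were all higher and 1 all lower, against 13.6% and 17.2%. With both against control, 2 were all higher and 3 all lower (20.8% and 19.5%). Gata4 is among the genes counted here although its gaps were small, at most 0.06. Sox17 is counted as all lower with both compounds against control and against forskolin, with gaps of 0.01. Neither of these passed in limma (adjusted p = 0.207 and 0.228). With both against CHIR alone, 4 were all higher and Foxq1 all lower (13.6% and 14.8%). With both against forskolin alone, 3 were all lower (20.8%, beside 23% of genes all higher). CHIR and forskolin arrays were apart for all 5 genes, 4 lower and 1 higher with CHIR (21% and 24.5%).

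The 3 probe sets of Foxq1 fell by different amounts with forskolin. The first read 8.43, 8.55 and 8.48 in control and 5.60, 5.66 and 5.43 with forskolin, a difference of -2.92. The second went from 7.80, 7.80 and 7.76 to 6.56, 6.61 and 6.56, a difference of -1.21. The third went from 7.06, 7.45 and 7.39 to 5.64, 6.04 and 5.78, a difference of -1.48. None overlapped, against 13.4% of all probe sets with 3 forskolin arrays all below control. The median of the gene is the second probe set on every control and CHIR array. It is the third on every forskolin and combination array, so -1.96 and the other differences between these groups join both. The median of the 3 probe set differences was -1.48 for forskolin and -1.6 for the combination, each against control. It was -1.87 for forskolin added to CHIR and 1.75 for CHIR against forskolin. The mean of the probe sets gave -1.87 (adjusted p = 2.99e-11). The brightest probe set gave -1.21 for forskolin, -1.53 for forskolin added to CHIR, -1.15 for the combination against control and 1.58 for CHIR against forskolin, all still past the threshold. With CHIR, 2 of the 3 probe sets were higher without overlap, against 16.1% of all probe sets.

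**Figure D3:**
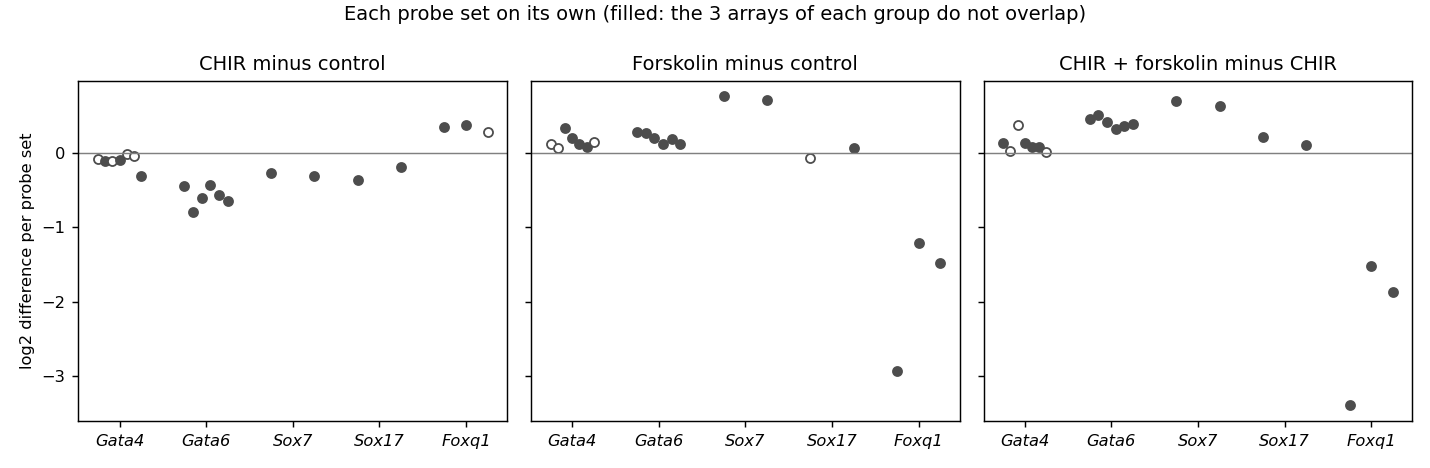
Log2 difference of each of the 20 probe sets for CHIR minus control, forskolin minus control, and CHIR plus forskolin minus CHIR, ordered within each gene as in the table, with filled points where the 3 arrays of each group do not overlap. All 6 Gata6 probe sets fall with CHIR (-0.79 to -0.44), and the 3 Foxq1 probe sets fall with forskolin (-2.92 to -1.21).

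**Figure D4:**
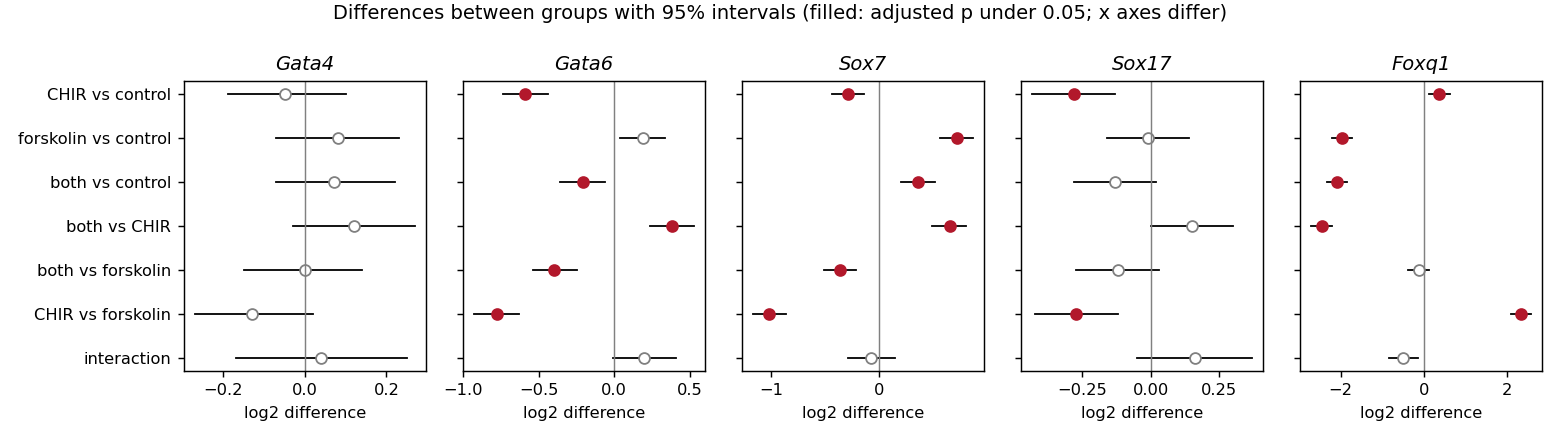
Log2 differences of the 5 genes in the 6 pairwise comparisons and the interaction, with points for limma estimates, lines for 95% intervals and filled points for an adjusted p under 0.05. Gata4 has no filled point, Sox7 has 6, and no interaction is filled.

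Genes with the most similar pattern were ranked by the root mean square distance between the 4 group means, each gene centred on its own mean, over the 8835 other genes whose highest group mean reached the median of all gene means (7.48). The 5 closest to Gata6 were Stx5 (0.035), Dgka (0.036), Ptpn3 (0.037), Sh3pxd2b (0.038) and Golm2 (0.041), in log2 units. Stx5 encodes a syntaxin of Golgi transport and Dgka a diacylglycerol kinase. The 5 closest to Sox7 were Aff1 (0.04), Akr1c15 (0.04), Pi16 (0.065), Wfdc1 (0.067) and B2m (0.069). Akr1c15 reached that level only with forskolin, where it was highest (6.97 in control), so the filter itself favoured its pattern. Aff1 encodes a transcription elongation factor and B2m the light chain of MHC class I. Within a distance of 0.1 lay 123 genes for Gata6 and 21 for Sox7. The distance is not scaled to the size of the change, and the group means spanned 0.78 for Gata6 and 1.02 for Sox7. The counts therefore do not tell which pattern was the more common.

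No gene came within 0.1 of Foxq1, whose group means spanned 2.45, so that a fixed limit is harder to meet. The closest were Ocln (0.184), St14 (0.295), Ank3 (0.404), Marveld2 (0.418) and Krt18 (0.431). Ank3 and Krt18 reached the level of 7.48 only in control and CHIR, where Foxq1 was high, so the filter itself favoured their pattern. Ocln encodes occludin of tight junctions, St14 the membrane protease matriptase and Marveld2 tricellulin. Ocln differed from control by 0.38 with CHIR, by -1.52 with forskolin and by -2.04 with both, beside 0.37, -1.96 and -2.08 for Foxq1. Ank3 differed from Foxq1 in sign with CHIR, at -0.56. The group means of Gata4 and Sox17 spanned less than 0.5, and no such genes were named for them.

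**Figure D5:**
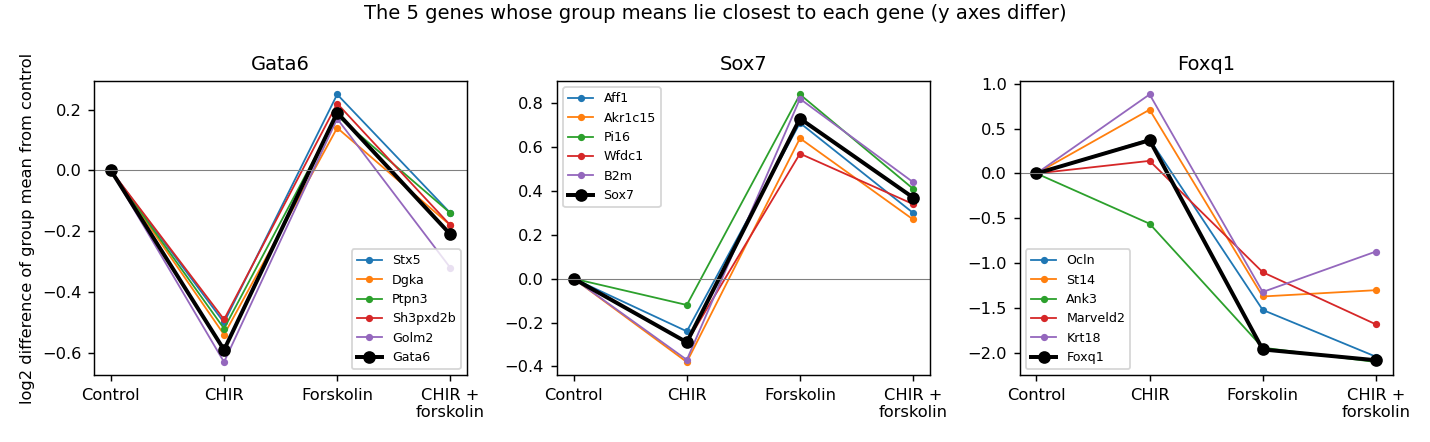
Log2 difference of the group mean from control in the 4 groups for Gata6, Sox7 and Foxq1 (black) and the 5 genes closest to each (colours), with separate y axes. With both compounds the 5 genes closest to Gata6 lie between -0.32 and -0.14, beside -0.21 for Gata6, while those closest to Foxq1 spread from -2.10 to -0.87, beside -2.08.

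Other genes of the lineage programme were counted for comparison, and their list was drawn up with earlier results of these data known. Of 18 other measured core genes of extraembryonic endoderm, 12 fell and 2 rose with CHIR, with a median difference of -0.34 beside 0.013 for all genes. Over all genes 13.9% passed lower and 14.3% higher in that comparison. The largest falls were Cubn (-4.19), the uptake receptor cubilin, the basement membrane gene Nid1 (-2.04), Amn (-1.15), the endocytic adaptor gene Dab2 (-1.07), Col4a2 (-0.73) and Col4a1 (-0.72). Hnf4a (1.25) and Pdgfra (0.31), a growth factor receptor of primitive endoderm, rose. With forskolin 4 of the 18 fell, Hnf4a (-2.04), Amn (-1.39), Cubn (-1.29) and the surface glycoprotein gene Emb (-0.99). Another 2 rose, Cited2 (0.32) and Srgn (0.26), and the median was 0.04 beside -0.004. Over all genes 8.92% passed lower and 6.07% higher with forskolin. Of 15 genes reported in mouse cells to lie downstream of these factors, 9 fell and 4 rose with CHIR (median -0.31), and 4 fell with forskolin (median 0.01), and most of them also stand in the core list.

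Parietal and visceral markers were counted in the same way. Of all genes, 13.9% fell and 14.3% rose with CHIR, and 8.92% fell and 6.07% rose with forskolin. Of 11 parietal genes 8 fell and 2 rose with CHIR (median -0.44), and 1 fell and 1 rose with forskolin (median 0.06). Of 13 visceral genes 3 fell and 5 rose with CHIR (median -0.04), and 6 fell with forskolin (median -0.33). Of 21 signalling genes upstream, 7 rose and 2 fell with CHIR, the falls being Pdgfa (-1.19), the ligand of the Pdgfra receptor, and Fgfr1 (-0.52). With forskolin 2 of the 21 rose and 1, Pdgfa (-1.06), fell.

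Many genes of the wider families lay below background in all groups, so the family medians say little. In at least 1 group, 9 of 15 GATA genes and partners, 6 of 14 Sox genes and 16 of 29 Fox genes lay above it. Over all genes this held for 10405 of 16633. Among 15 other measured GATA genes and partners, Gata3 (1.85), Gata2 (1.74) and Gata1 (0.50) rose with CHIR and Gata5 (-0.29), at the edge of background, fell, with a median of 0.04. The median of this list with forskolin was 0.08, with Gata2 higher (0.57) and the GATA partner gene Lmo2 (-0.46), which lay near background, lower. Of 14 other Sox genes, Sox8 (-0.88) and Sox4 (-0.85) fell, to levels below the background reference, and Sox9 (0.28) rose with CHIR, and Sox9 (-0.75), Sox4 (-0.65) and Sox12 (-0.49) fell and Sox13 (0.48) rose with forskolin. Sox18, the remaining F group gene, lay near background in all groups (control 5.38 ± 0.056) and did not pass with CHIR (0.08, adjusted p = 0.586) or forskolin (-0.04, adjusted p = 0.862). Of 29 other Fox genes, 4 rose and 4 fell with CHIR, led by Foxp4 (0.82) and Foxh1 (-0.66). Foxh1 ended below the background reference, at 6.3. With forskolin Foxm1 (-0.44) and Foxp4 (-0.41) fell. The Fox medians were -0.01 with CHIR and 0.05 with forskolin. Over all genes 14.3% passed higher and 13.9% lower with CHIR, and 6.07% and 8.92% with forskolin. The Fox counts with CHIR lay near these shares.

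Markers of other cell types were summed on the linear scale for each array. Of the endothelial list, which matters because Sox7 and Sox17 are also endothelial genes, 7 of 9 were measured. Of these, Tek and Tie1 lay above background in control, while Cdh5, Erg and Emcn lay below it in every group. Their log2 sum was 9.71 to 9.78 in control, 8.67 to 8.93 with CHIR, 9.38 to 9.41 with forskolin and 9.05 to 9.11 with both. The sum was lower than control with each treatment, in the same order as Tek, its brightest member in control. Tek read 8.54 in control, 6.11 with CHIR, 7.91 with forskolin and 7.27 with both. Sox7 was lower than control with CHIR and higher with forskolin and with both, and Sox17 was lower with CHIR. The trophoblast sum (9 of 10 measured, with Elf5 and Ascl2 among those near background) was 9.19 to 9.28 in control, 9.75 to 9.87 with CHIR, 9.32 to 9.47 with forskolin and 9.50 to 9.59 with both. With CHIR only Cdx2 and Gata3 of this list lay above background. These were the members that rose with CHIR (2.16 and 1.85), while Tfap2c, below background in every group, fell (-0.61, limma adjusted p = 0.00445). The pluripotency sum (7 of 10 measured, with Nanog and Sox2 near background) was 11.00 to 11.16 in control, 11.78 to 11.84 with CHIR, 11.76 to 11.87 with forskolin and 12.04 to 12.09 with both. Its brightest member, Klf4, rose with CHIR (1.05, adjusted p = 7.08e-08) and with forskolin (0.96, adjusted p = 6.62e-07). Pou5f1, which encodes the defining pluripotency factor Oct4, fell with CHIR (-1.46, adjusted p = 2.04e-05) and did not pass with forskolin (0.39, adjusted p = 0.179). The mesoderm or definitive endoderm sum (6 of 8 measured) was 8.73 to 8.80 in control, 8.68 to 8.77 with CHIR, 8.94 to 9.01 with forskolin and 8.77 to 8.81 with both. The blood sum (5 of 6 measured, all near background) was 7.90 to 7.98 in control, 7.83 to 7.97 with CHIR, 8.01 to 8.16 with forskolin and 7.95 to 8.08 with both. The part of these shifts in the results for the 5 genes was not tested. Fibroblast sums (8 of 8 measured, with Col1a1 alone above background) overlapped in all groups, from 8.85 to 9.07. In bulk RNA, fewer cells that express a gene and less RNA per cell cannot be told apart.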

How the data were processed

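Total RNA of 12 samples, 3 per group, was labelled with biotin per the labels, with an Affymetrix kit, and each sample was read on 1 rat array. The deposited values are log2 signals, 1 per probe set and array, normalised by the authors. The submitters' processing notes name RMA and Partek, with no version, option or genome build. The range of the values set the log base. RMA compresses values near background, and 3 arrays per group limit the precision.

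Of 211195 probe sets, 172924 had 1 gene symbol in the platform annotation, 1661 had several and were left out, and 36610 were unnamed. Symbols were updated through the GRCr8 gene list (12878 current, 3640 updated, 115 kept), which gave 16633 genes, each the median of its probe sets. The model, 4 group means without trend, used limma 3.58.1, R 4.3.3. Tests were two-sided, with Benjamini-Hochberg adjustment over all genes of a comparison and a threshold of 0.05, and 95% intervals used the moderated variance. The fit was tested on simulated data. Family pairs were compared by exact permutation within strata (Python 3.11.15, numpy 2.4.6, pandas 2.3.3, figures with matplotlib 3.10.9). Alternatives were the mean or brightest probe set, centred arrays, trended moderation, smaller fits, a filter on dim genes, the replicate block and each array left out.

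The members and gene lists were chosen with earlier results of these data known. The named genes are the 5 members, the 5 genes closest to each member whose means spanned at least 0.5, up to 6 passing members of a list per direction, and Axin2 and Crem. Sox18, Klf4, Pou5f1 and other cell type markers were named in addition, after their values were seen.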

Additional observations from a re-analysis of the deposited data

Results flagged for a closer look

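The estimated effect of CHIR on Foxq1 differed in sign without and with forskolin. Without forskolin all 3 CHIR arrays lay above the control mean, by 0.37 on average, and with forskolin all 3 combination arrays lay below the forskolin mean, by -0.12 on average. Combination replicate 1 was at 5.82, beside a forskolin mean of 5.82. The latter difference had a 95% interval of -0.37 to 0.13, its arrays overlapped, and it was 0.0521 with the brightest probe set. The gene median took the 0.37 from the second probe set and the -0.12 from the third. On the 3 probe sets in order CHIR gave 0.34, 0.37 and 0.27 without forskolin. With forskolin it gave -0.13, 0.05 and -0.12, so the sign did not change on the second. The interaction of -0.49 did not pass in limma on the gene median (adjusted p = 0.105) and passed on the mean of the probe sets (adjusted p = 0.016). Both groups with forskolin were below the background reference of 6.42 on the gene median. The second probe set was above it there, at 6.58 with forskolin and 6.63 with both.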

How the results depend on the processing

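Of 660 recomputed differences of the 5 genes, 632 kept their direction and their side of the threshold, 13 lost and 4 gained a call, and 11 changed sign, none of them a call. In a pairwise comparison, leaving out an array of another group could change only the p-value. The same holds for trended moderation, the replicate block, the filter on dim genes and smaller fits. The direction was fixed in advance in those, so the 632 is no measure of robustness. Sox7 and Sox17 kept all their calls, and so did Gata6 and Foxq1 except in the comparisons given here. Gata6 with both compounds against control lost its call with the brightest probe set (-0.13), centred arrays (-0.17), the replicate block (-0.21) and a fit of only the groups compared (-0.21), and ranged from -0.23 to -0.20 with an array left out. Foxq1 with CHIR ranged from 0.28 to 0.42 with an array left out. Calls were gained by Gata6 with forskolin under the mean of probe sets (0.19) and trended moderation (0.19), by Gata4 for CHIR against forskolin (-0.26) and by the Foxq1 interaction (-0.39), both under the mean of probe sets. Sign changes were Sox17 with forskolin (0.0653 with the brightest probe set, 0.0326 with centred arrays, -0.0209 to 0.0092 with an array left out), Gata4 with both against forskolin (-0.0418 to 0.0159 with an array left out), Foxq1 with both against forskolin (0.0521, brightest probe set) and the Gata4 interaction (-0.0325 with the mean, -0.0418 with the brightest probe set). For the family pairs, Gata6 minus Gata4 with forskolin lost its call with the brightest probe sets (0.12), and Sox7 minus Sox17 with CHIR gained one there (-0.16) and ranged from -0.14 to -0.11 with an array left out. Counts over all genes moved by over 1.5 times for forskolin lower, from 1483 to 897 with the brightest probe set and 979 without Forskolin replicate 3 (979 to 1567 with an array left out). They moved for both against CHIR higher, from 1082 to 1631 with the mean, and for the interaction, from 540 higher and 510 lower to 1037 and 833 with the mean and 304 and 326 with the brightest probe set. The cause was not tested. Over all alternatives the core list had 8 to 15 falls with CHIR and 0 to 4 rises with forskolin, and Sox genes had 0 to 2 rises with CHIR. No pairing by replicate number was seen in the correlations, which with 3 arrays per group cannot exclude one. Same-numbered arrays correlated in their deviations at -0.19 to 0.16 over 18 pairs, 4 of 12 arrays correlated best with their own number, and the replicate block gave 2327 higher and 2254 lower genes for CHIR against control in place of 2373 and 2304. No interaction was fitted from 2 groups alone, and protein identity within families was not run. Low signal limits Foxq1 with forskolin, and 2 probe sets limit Sox7 and Sox17.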

Other observations

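Gata4 and Sox7 stand on the same chromosome, 15 in GRCr8, with 6 protein-coding genes annotated between them, all measured. The set was chosen after the values of Gata4 and Sox7 were seen. With CHIR, 3 of the 6 were higher, Tdh (0.65), the phosphatase-family gene Mtmr9 (0.40) and Xkr6 (0.30). Of all genes 14.3% passed higher and 13.9% lower with CHIR. Tdh stayed below the background reference, and Sox7 fell. With forskolin, Xkr6 was higher (0.34, limma adjusted p = 0.00873) and Pinx1, which encodes a telomerase inhibitor, was lower (-0.35, adjusted p = 0.0442). Of all genes 6.07% passed higher and 8.92% lower with forskolin. Blk and Fam167a lay near background and did not pass. With both compounds Xkr6 was 0.66 above control (adjusted p = 2.09e-05), and the other 5 did not pass. Of all genes 14.3% passed higher and 14.7% lower with both.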
